A study of Mus musculus with 20 samples.

Results

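The comparison described here is that of mouse hearts carrying the mdx mutation against hearts without it. Its 10 heart libraries, of 20 libraries in the whole series, were chosen by group label alone: 6 from mdx-carrying mice and 4 from non-carrying mice, each from a different animal, with 2 animals in each of 5 groups. The non-carrying groups were wild-type C57BL/6N mice and transgenic C57BL/6N mice, which hold a system that places an unnatural amino acid (UAA) at a stop codon and were made by microinjecting linearized plasmid into fertilized eggs. The carrying groups were mdx mice on C57BL/10, trans/mdx mice from the cross of both lines without UAA, and trans/mdx mice given 50 mg of the UAA NAEK, a lysine derivative, every few days over 4 weeks; the strain label of both trans/mdx groups is C57BL/6N. Age, the promoters of the transgene and the number of founder lines are not stated in the labels. Strain and the mdx group therefore cannot be told apart, and 2 of the 3 carrying groups hold the transgene beside 1 of the 2 non-carrying groups. Each group mean had equal weight within its side of the comparison.

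The mdx mutation puts a premature stop codon into Dmd, which encodes dystrophin, the protein that ties the actin cytoskeleton of muscle cells to a membrane complex of dystroglycan, sarcoglycans and syntrophins. Its loss leaves the membrane open to damage during contraction. In mdx mice the disease of skeletal muscle comes early, while that of the heart is late and mild, with fibrosis and ventricular dysfunction in older animals.

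Levels are FPKM (fragments for each kilobase of transcript, relative to library depth), so they can be compared between genes. Low values implied 3.04e+06 to 4.2e+06 fragments per heart library, at which 1 fragment on a transcript of 1 kb equals 0.238 to 0.329 FPKM. The heart markers Myh6, Myl2, Tnnt2, Actc1 and Ryr2 summed to at least 3857 FPKM in each heart library and to at most 179 FPKM in each muscle library. Exact zeros in the table can be failed estimates: mt-Nd1, a gene of the mitochondrial genome, stood at 17220 FPKM in treated replicate 1 and at 0 in the other 9 hearts. The hearts also held 1515 values above 0 and below 0.001 FPKM, which stand for less than 1 fragment.

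No gene was called between carrying and non-carrying hearts. Of 8269 genes tested with limma (1 FPKM or more in at least 2 hearts, on log2(FPKM + 1)), 0 passed an adjusted p of 0.05 (0%), and the lowest adjusted p was 0.539. At an unadjusted p under 0.05 there were 261 genes (3.16%), of which 104 were higher in carriers (1.26%) and 157 lower (1.9%), where 413 would be expected by chance. On the lower side the smallest p were those of Hamp, Ywhag and Isg20, and on the higher side Hist1h4c, 3110043O21Rik and Tmem39a. The median log2 change over all genes was -0.01, the median SE 0.30, and the median half-width of the 95% interval 0.64. Fitted log2 changes as large as -1.72, that of Ywhag, did not pass the adjusted threshold with 2 mice per group.

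**Figure D1:**
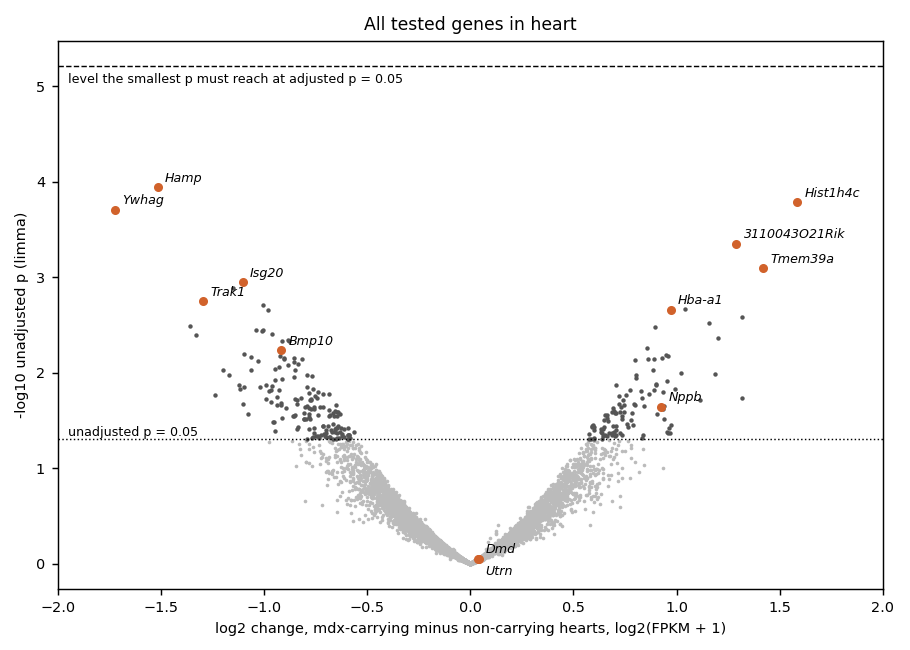
Log2 change between mdx-carrying and non-carrying hearts (x axis) against the -log10 of the unadjusted limma p (y axis) for each of 8269 genes; dark points have an unadjusted p under 0.05 and orange points are genes named in the text. All points lie below the upper dashed line, which the smallest p would have to reach for an adjusted p of 0.05.

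The gene with the smallest p was Hamp (chr7:30942368-30944032, minus strand, mm10), which encodes hepcidin, the peptide hormone that makes cells retain iron by degrading the exporter ferroportin and that is made mainly in liver and at a lower level in heart. Hamp was at 4.79 and 1.32 FPKM in wild-type hearts and at 1.15 and 1.32 in transgenic hearts, and was listed at 0 in all 6 carrying hearts (limma, unadjusted p = 1.14e-04, adjusted p = 0.539). The groups did not overlap. The transcript has 410 bases, on which 1 fragment equals 0.58 to 0.802 FPKM, so the non-carrying values stand for at most about 1.83 to 7.6 fragments each and 13.2 in all. Hamp was also listed at 0 in all 10 muscle libraries. Its promoter and that of Alas2, the erythroid gene discussed further on, are shown because Hamp had the smallest p of all genes and Alas2 was the leading gene of the erythrocyte list by size of change, though neither was called; the sequences are the 150 bases before the annotated start, from RefSeq (GRCm38.p6), read 5′ to 3′ on the strand of the gene.
Hamp, chr7:30944030-30944179, minus strand: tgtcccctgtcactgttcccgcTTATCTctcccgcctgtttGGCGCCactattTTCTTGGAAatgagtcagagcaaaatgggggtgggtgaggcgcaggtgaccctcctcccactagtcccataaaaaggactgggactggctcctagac
Alas2, chrX:150547267-150547416, plus strand: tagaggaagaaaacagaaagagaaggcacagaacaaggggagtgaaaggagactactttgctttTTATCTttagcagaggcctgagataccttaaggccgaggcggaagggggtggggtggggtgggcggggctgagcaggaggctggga
Capitals mark matches, searched on both strands, to GGCGCC (the BMP-responsive element of hepcidin promoters), AGATAA (bound by GATA factors, here read as TTATCT on the opposite strand) and TTCNNNGAA (a STAT motif). The Hamp window holds all 3, with GGCGCC at 109 to 104 bases before the start, and the Alas2 window holds AGATAA at 86 to 81 bases before it. Among 32851 mouse promoter windows of this length, 7.01% hold GGCGCC, 5.65% AGATAA and 4.09% TTCNNNGAA.

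Of the other genes on the lower side, Ywhag, the gene of the gamma isoform of the adaptor protein 14-3-3, was at 9.51 and 6.72 FPKM in wild-type, 10.6 and 7.33 in transgenic, 3.12 and 10.9 in mdx, 0.00112 and 0.415 in untreated trans/mdx and 0.767 and 3.34 in treated hearts (log2 change -1.72, SE 0.36; limma adjusted p = 0.539). All carrying hearts except mdx replicate 2 lay below the non-carrying range. The 0.00112 FPKM of untreated replicate 1 is less than 1 fragment, which equals 0.0676 to 0.0934 FPKM on this transcript. Isg20, an interferon-induced exonuclease gene, was at 2.32 and 1.69 FPKM in wild-type and 2.18 and 1.63 in transgenic hearts, beside 0.576 and 0.823 in mdx, 0 and 0.327 in untreated and 0.721 and 0 in treated trans/mdx hearts (log2 change -1.10, SE 0.28, limma, unadjusted p = 0.00113). Every carrying heart lay below every non-carrying heart.

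Narfl, which acts in the assembly of cytosolic iron-sulfur proteins, was at 3.43 and 2.09 FPKM in wild-type, 5.40 and 2.38 in transgenic, 0.581 and 1.63 in mdx, 0.791 and 0.478 in untreated and 0.879 and 1.04 in treated trans/mdx hearts (log2 change -1.15, SE 0.29). Rnf130, a RING-finger ubiquitin ligase gene, was at 4.74 and 4.69 FPKM in wild-type, 3.93 and 3.44 in transgenic, 2.09 and 2.50 in mdx, 1.78 and 0.859 in untreated and 1.02 and 1.86 in treated hearts (log2 change -0.98, SE 0.27). Neither gene overlapped between the sides. Trak1, an adaptor that ties mitochondria to kinesin, was at 1.19 to 3.08 FPKM in non-carrying hearts (log2 change -1.29, SE 0.34). It was at 0.266 or less in all carrying hearts but treated replicate 2, at 2.22. Carrying values went down to 1.99e-05 FPKM, where 1 fragment equals 0.0444 to 0.0613 FPKM on this transcript. Muscle values also went down to 2.48e-05 FPKM in carriers and 3.92e-05 in non-carriers. Whether such values are failed estimates was not tested. The remaining lower genes of the 10 were Hist1h2bb, Zfp259 and N28178, with log2 changes of -1.36, -1.04 and -1.01, and Hddc2, which did not overlap, at 0.833 to 1.87 FPKM in non-carrying and 0 to 0.329 in carrying hearts.

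On the higher side, Hist1h4c, a histone H4 gene, was listed at 0 in the 4 non-carrying and both untreated trans/mdx hearts, and was at 5.74 and 4.67 FPKM in mdx and 1.42 and 6.86 in treated hearts (limma adjusted p = 0.539). Clustered histone genes have near-identical copies, so both histone values are uncertain. 3110043O21Rik, the mouse counterpart of human C9orf72, was at 2.35 and 2.72 FPKM in wild-type, 1.17 and 0.562 in transgenic, 4.81 and 6.54 in mdx, 3.05 and 6.53 in untreated and 4.34 and 7.25 in treated hearts (log2 change 1.29, SE 0.29, limma, unadjusted p = 4.42e-04). Its sides did not overlap.

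Tmem39a, a transmembrane protein gene, was at 0.342 and 2.15 FPKM in wild-type, 0 and 0.430 in transgenic, 2.17 and 3.01 in mdx, 2.13 and 3.43 in untreated and 2.45 and 7.99 in treated hearts (log2 change 1.42, SE 0.34). Its lowest carrying heart lay just under the highest non-carrying heart. Psmb5, the gene of a catalytic proteasome subunit, was listed at 0 in 3 of 4 non-carrying hearts and was at 0.724 to 3.82 FPKM in carriers (log2 change 1.32, SE 0.37). Nosip, which encodes an interactor of nitric oxide synthase, was at 0.763 to 1.76 FPKM in non-carrying and 2.44 to 3.79 in carrying hearts without overlap (log2 change 0.89, SE 0.26). Ptgds, a prostaglandin D synthase gene, was at 15.2 and 17.5 FPKM in wild-type and 8.27 and 7.91 in transgenic hearts, beside 15.5 to 32.1 in carriers (log2 change 0.86, SE 0.27). The transgenic hearts were the low ones for Ptgds, and wild-type hearts overlapped with the carriers. AU040320 and Zfp58 had log2 changes of 1.04 and 1.16. Hba-a1 and Alas2, described with the erythrocyte genes, were the other members of the 10 on the higher side.

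**Figure D2:**
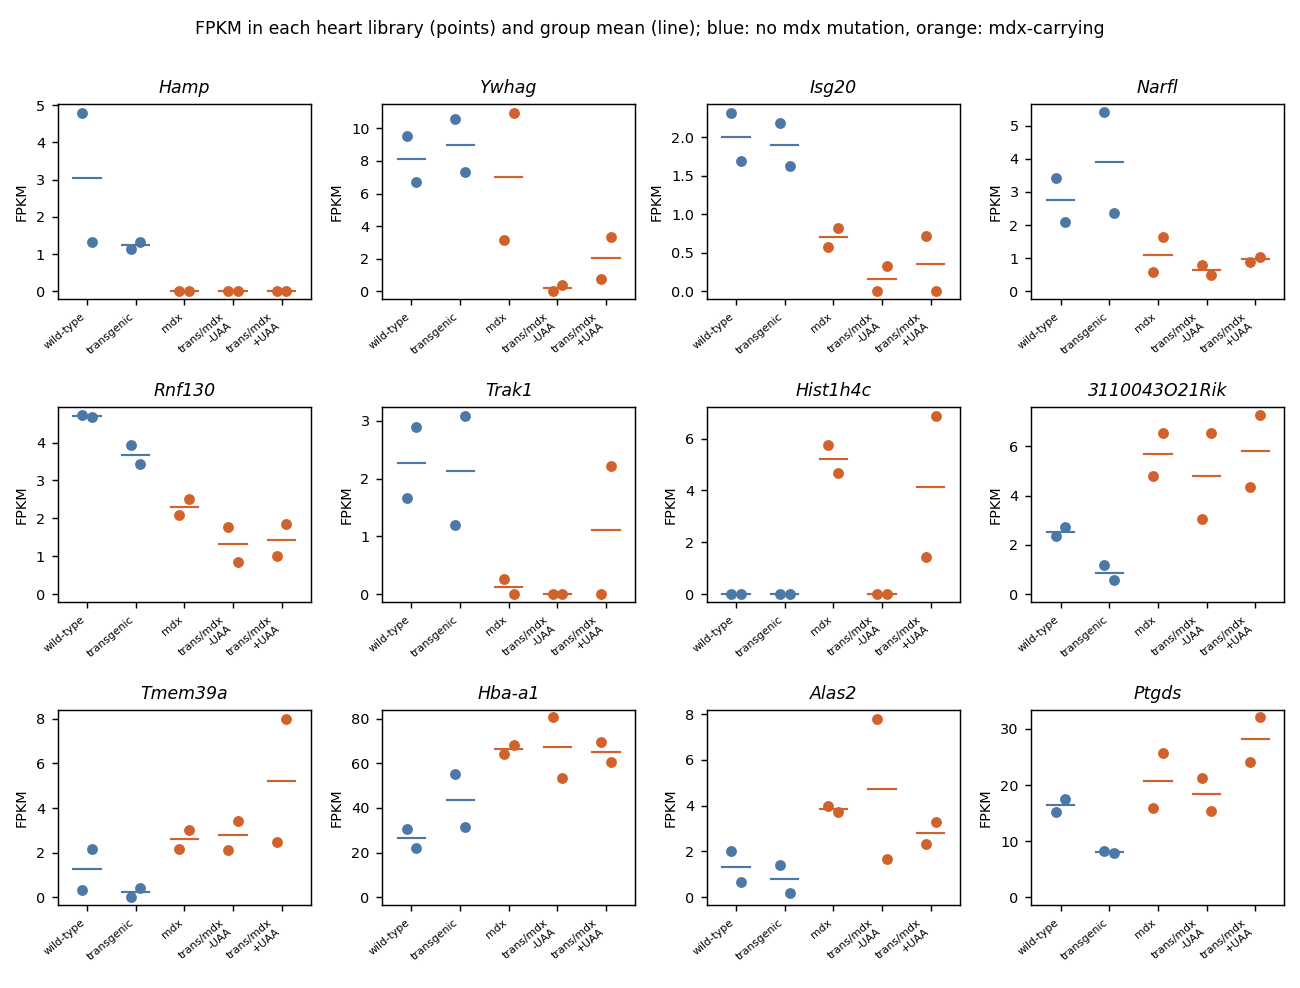
FPKM (y axes, linear, from 0) of 12 of the 20 leading genes by p, for each heart library by group; points are libraries, lines are means of the 2 mice, blue groups lack the mdx mutation and orange groups carry it. Hamp, Isg20, Narfl, Rnf130 and 3110043O21Rik show no overlap between the colours, while Ywhag, Trak1, Tmem39a, Hba-a1, Alas2 and Ptgds do, and Hist1h4c is listed at 0 in 2 carrying hearts.

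Of these 20 genes, 17 were in no library above 10 FPKM, 10 were listed at 0 in at least 1 heart, and 6 reached 1 FPKM on a single side of the comparison, through which alone they entered the test. With the mdx group left out, so that all 8 remaining hearts were labelled C57BL/6N, all 20 kept their direction and an unadjusted limma p under 0.05. The 20 were chosen on these same libraries, so that count is a description. Over all tested genes, the sides did not overlap for 37 (0.447%), 16 of them higher in carriers (0.193%) and 21 lower (0.254%). No test was run on this count, and the number expected by chance was not worked out. This count was 67 with median-of-ratios scaling and 64 with quantile normalization. Only 2 of the 37 had a mean of 5 FPKM or more, and both are named here after their values were seen. Usp16, a histone H2A deubiquitinase gene, was at 10.6 to 12.8 FPKM in non-carrying and 3.77 to 9.47 in carrying hearts (log2 change -0.76, SE 0.28), and Ccdc80, a matrix protein gene, was at 8.81 to 10.4 and 3.25 to 8.45 FPKM (log2 change -0.65, SE 0.26). Others among the 37, also chosen after their values were seen, were lower in level. Bax, a pro-apoptotic pore protein gene, was at 3.29 and 4.50 FPKM in wild-type, 2.81 and 2.46 in transgenic, 0 and 2.09 in mdx, 0 and 1.24 in untreated and 0 and 2.14 in treated hearts (log2 change -1.33, SE 0.39). Each carrying group thus held a heart listed at 0 and a heart above 1 FPKM. Cdk9, the kinase of transcription elongation, was at 1.27 to 4.82 FPKM in non-carrying and 0 to 1.14 in carrying hearts (log2 change -0.96, SE 0.28). Dhrs3, a retinaldehyde reductase gene, was at 2.76 to 3.56 FPKM in non-carrying and 3.65 to 7.90 in carrying hearts (log2 change 0.57, SE 0.26), and Desi1, a SUMO protease gene, at 0.552 to 1.24 and 1.51 to 3.09 FPKM (log2 change 0.80, SE 0.26).

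Dystrophin complex genes did not separate the sides at the level of RNA. Dmd itself (chrX:82948870-85206141, plus strand) was at 14.7 and 12.0 FPKM in wild-type, 17.9 and 13.2 in transgenic, 7.65 and 15.1 in mdx, 14.8 and 9.73 in untreated and 26.4 and 22.4 in treated trans/mdx hearts (log2 change 0.04, SE 0.28). The treated hearts were the highest of all 10, and with that group left out the log2 change was -0.30. Utrn, the gene of the dystrophin relative utrophin, was at 3.56 to 4.45 FPKM in non-carrying and 2.84 to 5.68 in carrying hearts (log2 change 0.04, SE 0.27). A point mutation need not alter the count over a gene, so these levels are no check of the genotype labels.

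Of 24 listed genes of the dystrophin complex 20 were tested and 0 called, with a median log2 change of 0.03 beside -0.01 over all genes. Dag1, the dystroglycan gene, was at 12.3 to 15.4 FPKM in non-carrying and 11.2 to 16.9 in carrying hearts (log2 change -0.05, SE 0.26). Sgca, the alpha-sarcoglycan gene, was at 3.01 to 5.94 FPKM in non-carrying and 2.07 to 11.6 in carrying hearts (log2 change 0.15, SE 0.26). Both genes overlapped between the sides.

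Genes of contraction, matrix and stress showed no call either. All 19 sarcomere genes were tested, with log2 changes between -0.23 and 0.24 and a median of -0.00. Myh6, which encodes the main adult cardiac myosin of mice, was at 861 to 1260 FPKM in non-carrying and 721 to 1367 in carrying hearts. The 20 tested calcium handling genes had a median of -0.03, and the member with an unadjusted p under 0.05 was Orai1, a store-operated calcium channel gene (log2 change -0.72, SE 0.31). The 22 tested collagen and matrix genes had a median of -0.01, with Col1a1, a fibrillar collagen, at 0.982 to 2.35 FPKM in non-carrying and 1.37 to 2.40 in carrying hearts, and Postn, a matrix gene of activated fibroblasts, at 3.24 to 6.77 and 1.18 to 10.1 FPKM. Collagen levels thus overlapped on both sides.

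Among ventricular stress genes, Nppb, which encodes the natriuretic peptide BNP released by stretched myocardium, was the exception at an unadjusted p of 0.0228 (limma, adjusted p = 1). It was at 5.47 and 7.97 FPKM in wild-type, 12.1 and 2.82 in transgenic, 7.49 and 19.7 in mdx, 13.3 and 9.92 in untreated and 13 and 18 in treated hearts (log2 change 0.92, SE 0.37). Transgenic replicate 1 lay within the carrying range, as did wild-type replicate 2. Its relatives in the list had log2 changes of 0.36 for Myh7, a slow myosin that stressed ventricle takes up again, and -0.39 for Nppa, the atrial natriuretic peptide gene, and the median of the 9 tested members was 0.08.

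Over all 35 lists, 615 genes were listed, 492 tested and 0 called, and 17 had an unadjusted p under 0.05 (3.46%, beside 3.16% of all genes), 8 higher and 9 lower. The median over the tested list members was -0.03. The list medians ran from -0.44 for adipocyte genes to 0.31 for erythrocyte genes. In energy metabolism, 22 of 28 fatty acid oxidation genes were under the all-gene median (list median -0.13), as were 27 of 40 nuclear genes of oxidative phosphorylation (list median -0.06). Leaving out mdx replicate 1 turned the fatty acid oxidation median to 0.06, and leaving out transgenic replicate 1 turned that of oxidative phosphorylation to 0.14, so neither had a steady direction. Heat shock and chaperone genes had 11 of 13 members above the all-gene median and a list median of 0.12, which was -0.01 with the treated group left out. Clock genes had 10 of 11 below it and a list median of -0.25, which was -0.01 with the wild-type group left out; Per3, a period gene, and Dbp, a clock output factor, had log2 changes of -0.55 (SE 0.30) and -0.51 (SE 0.31). None of the members of these 4 lists had an unadjusted p under 0.05. The list of interferon-induced genes held members on both sides, with Isg20 and Gbp2 lower (log2 changes of -1.10 and -0.64) and Ifi27 higher (0.71), and a median of -0.05.

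**Figure D3:**
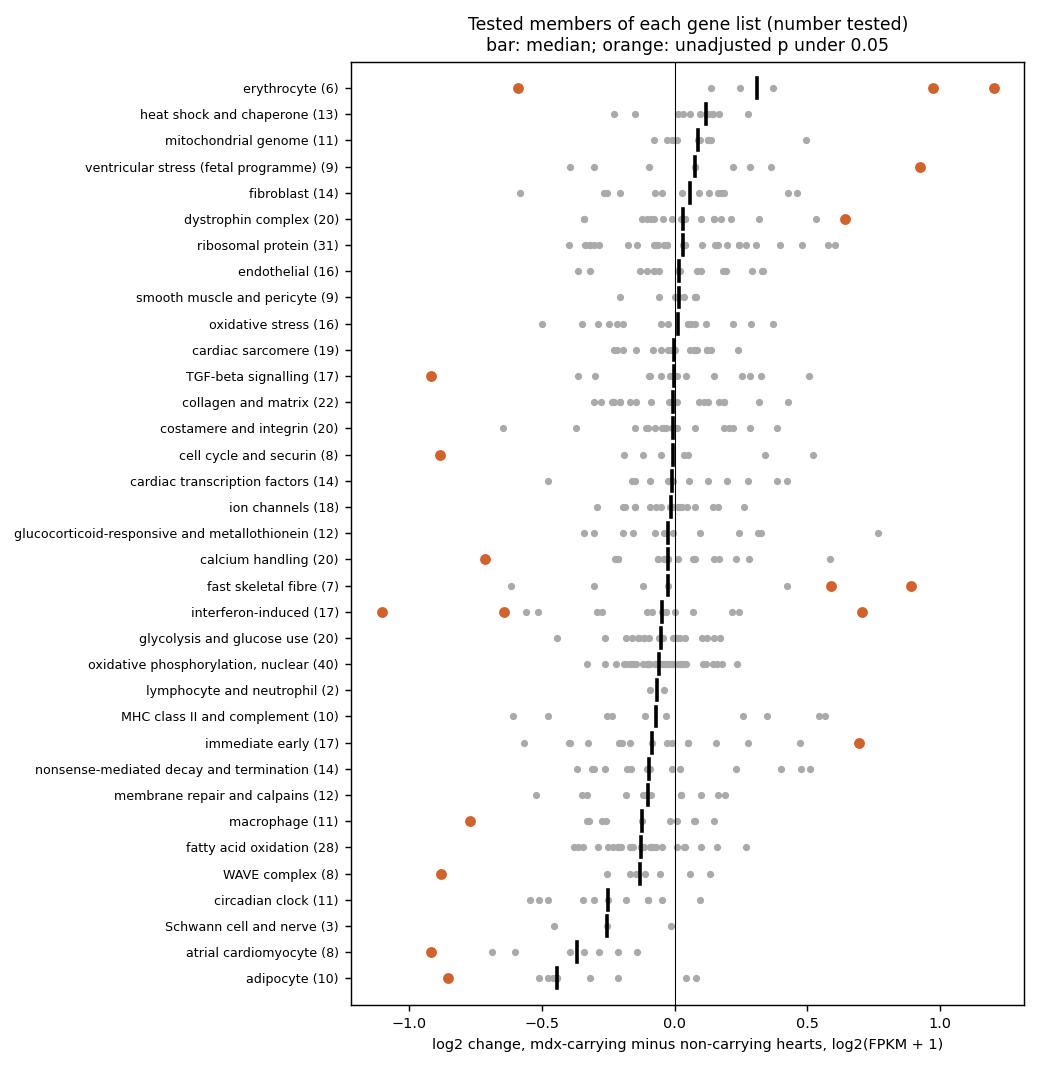
Log2 change between mdx-carrying and non-carrying hearts (x axis) of the tested members of 35 gene lists (rows, with the number tested); bars are list medians and orange points have an unadjusted limma p under 0.05. Medians lie between -0.44 (adipocyte) and 0.31 (erythrocyte), and 0 members passed the adjusted threshold.

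Genes that act at premature stop codons were listed because the mutation is a stop codon and the transgene reads through stops. Of 16 listed genes of nonsense-mediated decay and translation termination 14 were tested, with 0 at an unadjusted p under 0.05 and a median of -0.10. Upf1, the helicase of nonsense-mediated decay, had a log2 change of -0.01 (SE 0.31), Etf1, the release factor that reads stop codons, -0.26 (SE 0.26), and Upf3a, a decay cofactor, 0.51 (SE 0.37). The members thus lay on both sides of 0.

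Erythrocyte genes stood at the upper end of the list medians. Hba-a1, an alpha-globin gene, was at 30.7 and 21.9 FPKM in wild-type and 55.2 and 31.6 in transgenic hearts, beside 64.1 and 68.3 in mdx, 80.8 and 53.6 in untreated and 69.6 and 60.4 in treated trans/mdx hearts (log2 change 0.97, SE 0.26, limma, unadjusted p = 0.00217, adjusted p = 1). Only transgenic replicate 1 reached into the carrying range. Alas2, the erythroid enzyme that starts haem synthesis, was at 2.02 and 0.658 FPKM in wild-type, 1.42 and 0.165 in transgenic, 3.98 and 3.73 in mdx, 7.79 and 1.68 in untreated and 2.31 and 3.29 in treated hearts (log2 change 1.2, SE 0.36). The near-identical copy Hba-a2 had a log2 change of 0.14, the beta-globin genes Hbb-bs and Hbb-bt 0.25 and 0.37, and Bpgm, an erythroid enzyme of glycolysis, -0.59, so the members of the list differed in direction. The list median of 0.31 was -0.02 with the wild-type group left out. The 5 erythrocyte markers summed to 144 to 286 FPKM in carriers and to 97.8 to 184 in non-carriers. Reads can be split between globin copies, and how much blood remained in each heart was not tested.

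Atrial and fat cell genes stood at the lower end, and the order of the groups was uneven. The list median of atrial genes was -0.37, with all 8 members under the all-gene median. Bmp10, the gene of a bone morphogenetic protein made in atria, was at 6.84 and 7.18 FPKM in wild-type, 0.846 and 2.48 in transgenic, 0 and 0.417 in mdx, 0 and 0.499 in untreated and 8.01 and 8.64 in treated trans/mdx hearts (log2 change -0.92, SE 0.29, limma, unadjusted p = 0.00579). The treated hearts were the highest and the other carriers the lowest, and with the wild-type group left out the log2 change was -0.09. Myl4, an atrial myosin light chain gene, was at 11.2 to 22.4 FPKM in non-carrying and 4.04 to 23.7 in carrying hearts (log2 change -0.69, SE 0.38), and Nppa was at 105 to 156 and 67.2 to 162 FPKM. The list median was -0.16 with the wild-type or the untreated trans/mdx group left out. The 5 atrial markers summed to 86.8 to 238 FPKM in carriers and 142 to 236 in non-carriers, so the ranges overlapped. In whole-heart RNA, fewer cells of a type and less RNA per cell cannot be told apart.

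Of 10 tested adipocyte genes 8 were under the all-gene median. Car3, a carbonic anhydrase gene abundant in fat cells, was at 4.72 and 6.58 FPKM in wild-type, 0 and 0.639 in transgenic, 0 and 0.534 in mdx, 0.177 and 0 in untreated and 2.13 and 2.03 in treated hearts (log2 change -0.85, SE 0.28). The 5 adipocyte markers summed to 11 and 15.5 FPKM in wild-type hearts, to 0 and 0.639 in transgenic hearts, and to 0.177 to 4.79 in carriers. The list median of -0.44 became 0.16 with the wild-type group left out, and Car3 then had a log2 change of 0.33.

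Of the other listed genes with an unadjusted p under 0.05, Cyfip2, Nr4a1, Tnnt3 and Myh4 also followed single groups, and Cd68 did not. Cyfip2, the gene of a WAVE complex subunit that controls actin branching, was at 7.17 and 6.58 FPKM in wild-type, 3.48 and 2.12 in transgenic, 0.438 and 0.381 in mdx, 3.18 and 1.95 in untreated and 4.55 and 3.84 in treated hearts (log2 change -0.88, SE 0.27, limma, unadjusted p = 0.00464). The untreated trans/mdx hearts overlapped with the transgenic hearts and the treated hearts lay above them, and with the mdx group left out the log2 change was -0.35. Nr4a1, an immediate early gene, was at 4.81 and 5.91 FPKM in treated hearts and at 0.491 to 1.53 in all others (log2 change 0.69, SE 0.28), and the log2 change was 0.16 with the treated group left out. Tnnt3 and Myh4, troponin and myosin genes of fast skeletal fibres, reached 1 FPKM in the treated hearts alone, at 7.04 and 2.76 and at 2.64 and 2.39 FPKM. The 6 skeletal fibre markers summed to 22.0 and 25.6 FPKM in treated hearts and 6.00 to 15.4 in the others, beside 12503 or more in every muscle library. Cd68, a macrophage gene, was at 0 to 0.757 FPKM in carriers and 0.340 to 2.21 in non-carriers (log2 change -0.77, SE 0.30). Its log2 change was -0.59 with the mdx group left out and -0.91 with the treated group left out. The 6 macrophage markers found summed to 4.91 to 27.6 FPKM in carriers and 12.6 to 22.4 in non-carriers.

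Whether the difference between carriers and non-carriers was itself the same with and without the transgene was tested as untreated trans/mdx minus transgenic hearts, less mdx minus wild-type hearts. A call was made for 1 of 8269 genes (0.0121%), beside 304 at an unadjusted p under 0.05 (3.68%). This gene was Pttg1 (chr11:43420250-43426251, minus strand), which encodes securin, the inhibitor of separase. Pttg1 was at 11.4 and 18.1 FPKM in wild-type hearts and listed at 0 in both mdx hearts, while it was at 3.36 and 4.05 in transgenic and 8.95 and 8.54 in untreated trans/mdx hearts (limma, adjusted p = 0.00241). The mdx-carrying hearts were thus the lower pair without the transgene and the higher pair with it. Treated hearts were at 7.70 and 10.6 FPKM, near the untreated ones.

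Over both sides together Pttg1 had a log2 change of -0.88 (SE 0.27), which was 0.22 with the mdx group left out. The genes with the next smallest p did not pass. Scd1, a fatty acid desaturase gene of the adipocyte list, was at 11.5 and 8.28 FPKM in wild-type, 1.19 and 0.952 in mdx, 0.514 and 0.182 in transgenic and 0.655 and 0.854 in untreated trans/mdx hearts (difference 2.77, SE 0.58, limma adjusted p = 0.637). The wild-type hearts stood apart from the other 3 untreated groups. Treated trans/mdx hearts, which are no part of this difference, were at 4.00 and 5.78 FPKM. Gm4540, a predicted gene, was listed at 0 in wild-type and untreated trans/mdx hearts and was at 1.13 to 2.33 FPKM in transgenic and mdx hearts. In treated hearts Gm4540 was at 1.42 and 0 FPKM. For Pttg1 the strain of the mdx group and its genotype cannot be told apart.

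**Figure D4:**
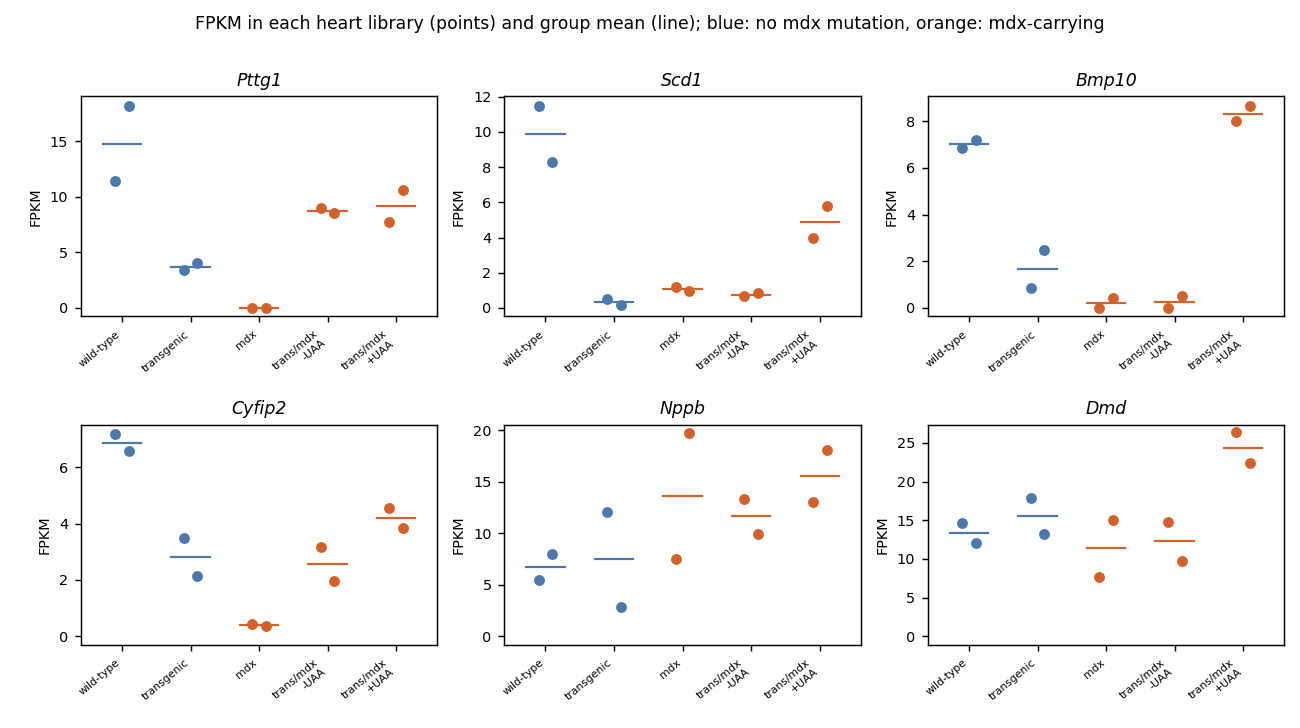
FPKM (y axes, linear, from 0) of 6 genes whose carrying and non-carrying hearts overlap, in each heart library. Points are libraries, lines are means of the 2 mice, blue groups lack the mdx mutation and orange groups carry it. Pttg1 is listed at 0 in both mdx hearts and lies between 7.70 and 10.6 in the trans/mdx hearts, and Bmp10 is highest in treated hearts.

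The same contrast in tibialis anterior muscle of the series, 10 libraries in the same 5 groups, was compared with heart in a fit of all 20 libraries. Of 10085 genes 0 were called as differing between the tissues (0%), and 346 had an unadjusted p under 0.05 (3.43%). In muscle, both libraries with a cross title are labelled as transgenic by genotype, and their title was followed. Of the 20 genes with the smallest p in heart, 8 had the same direction in muscle, 11 the opposite direction, and Hamp was listed at 0 there. Their muscle log2 changes ran from -0.93 for Hist1h4c to 0.30 for Alas2. Most were smaller than their SE, among them Tmem39a at -0.01 (SE 0.40) and Ywhag at -0.07 (SE 0.33). The counts of direction are thus no measure of a reversal in muscle.

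Hamp was among the genes with the smallest p for a difference between the tissues (limma adjusted p = 0.728), with values above 0 in heart alone. Atg7, an autophagy enzyme gene, was at 0.361 to 2.52 FPKM in carrying and 0.0788 to 0.592 in non-carrying hearts, and at 0 to 3.09 and 1.07 to 3.26 FPKM in the muscles (log2 changes of 0.86, SE 0.25, and -0.78, SE 0.25; limma adjusted p of the difference 0.811). No gene was called here, so differences between the tissues were not detectable beyond the spread between mice.

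**Figure D5:**
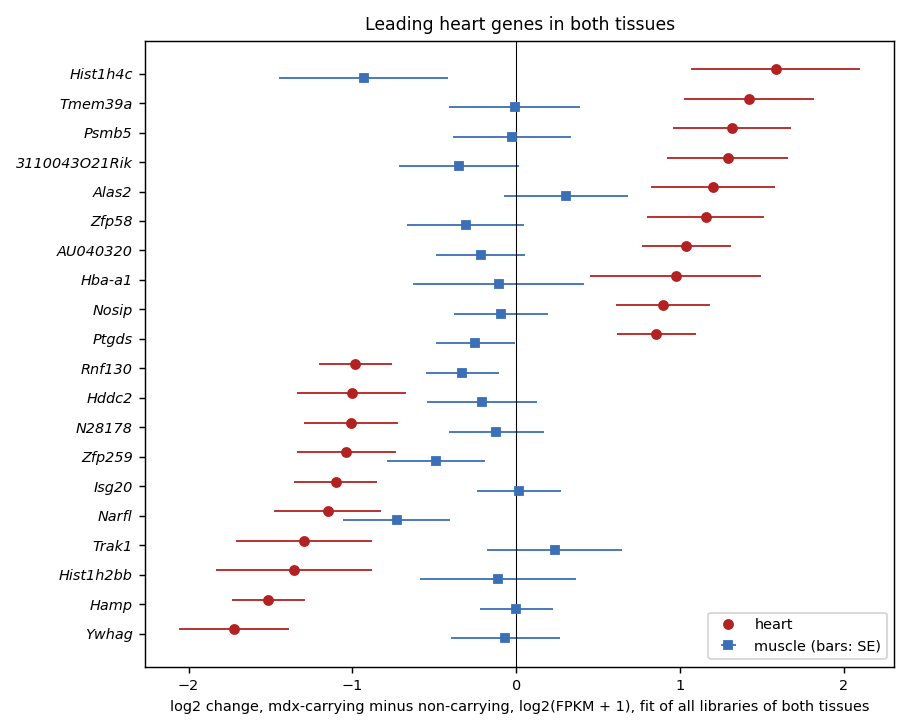
Log2 change between mdx-carrying and non-carrying libraries (x axis; bars are SE) of the 20 genes with the smallest p in heart, in heart (red circles) and muscle (blue squares), from the fit of all 20 libraries. The genes were chosen by their heart values; in muscle they lie between -0.93 and 0.30, and the fitted values of Hamp and Hist1h4c rest on groups listed at 0 and are no measure of fold.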

How the data were processed

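RNA of 10 hearts and 10 muscles was measured as FPKM, deposited by the authors in 1 table of 22564 protein-coding genes. The labels' protocols describe rRNA depletion and directional libraries. The submitters' processing notes list mm10, HISAT2 2.0.4, Cuffdiff, Cufflinks and cutadapt 1.9.3. The annotation and the use of strand are not stated there. 1 line of the table was empty. Depth was read from steps between low FPKM, of which 81.8 to 87.1% in hearts were whole steps to within 4%. Counts were not used here.

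FPKM were transformed as log2(FPKM + 1), which understates changes of low genes. Genes reaching 1 FPKM in 2 or more fitted libraries were tested two-sided with limma 3.58.1 in R 4.3.3, using 1 coefficient for each group, an intensity trend, 5 residual degrees of freedom (10 over both tissues) and Benjamini-Hochberg adjustment at 0.05. The SE and p thus measure the spread between mice of a group and leave out that between groups of a side. With 1 coefficient per side instead, the unadjusted limma p of Bmp10 was 0.175 in place of 0.00579. That of Hamp was 7.24e-05 in place of 1.14e-04. Hist1h4c and Ywhag, which share the lowest adjusted p with Hamp, went the other way. Their unadjusted limma p were 0.00806 in place of 1.63e-04 and 0.00399 in place of 1.96e-04. The method was tested on simulated data, with large changes planted in well-expressed genes alone. That test does not cover small changes, low genes or genes listed at 0. Replicates are separate mice, and 0 library pairs were identical.

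Members, lists and tests were chosen with earlier results of these data known. Named genes were Dmd, Utrn, 10 per direction by smallest p, up to 3 per list with an unadjusted p under 0.05, and 3 per difference test; others are examples from the lists or are marked. Lists are described by counts and medians. Coordinates are GENCODE's for mm10. Alternatives changed the pseudocount, filter, scaling, model and libraries. Results of 2 genes that this rule names are not reported here.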

Additional observations from a re-analysis of the deposited data

Results flagged for a closer look

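Pttg1 was flagged because its difference between mdx-carrying and non-carrying hearts was not the same with and without the transgene, by the test of the difference itself. On the fitted log2(FPKM + 1) scale the difference was 5.0 (SE 0.58, limma adjusted p = 0.00241), with both untreated trans/mdx hearts above both transgenic hearts and both mdx hearts below both wild-type hearts. The mdx hearts are both listed at 0 and so add no spread between mice to the estimate behind the p. The size of the difference also depends on the pseudocount and ranged from 2.62 with 5 FPKM to 8.40 with 0.1 FPKM. It passed the threshold under 16 of 17 alternatives, with adjusted p from 1.98e-04 to 0.0503, the highest without a filter on low values. In muscle, Pttg1 was also listed at 0 in 2 libraries, both from mdx-carrying mice. Carrying muscles reached up to 14.0 FPKM, and non-carrying muscles were at 2.06 to 15.3. Its log2 change between all carrying and non-carrying muscles was -0.83 (SE 0.35), beside -0.88 in heart. Whether the zeros are failed estimates was not tested, and each alternative kept mdx hearts listed at 0.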

How the results depend on the processing

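With 2 mice per group and few fragments on low genes, the absence of a call shows no more than that differences were within the error. Under 26 alternatives, the count of genes between carrying and non-carrying hearts stayed at 0 except that the fit of all 20 libraries called 1, Hamp (adjusted p = 0.0242), where its muscle libraries, all listed at 0, enter the estimate of spread; it was 0 on leaving out each library in turn. Scaling by median-of-ratios or quantiles gave 412 and 415 genes at an unadjusted p under 0.05 in place of 261. The split of the 261 was 39.8% higher, and 47.1% and 45.1% after these scalings. Leaving out a group or a library moved it between 13.9% (without transgenic replicate 2) and 66.5% (without the untreated trans/mdx group). The count by transgene was 0 with no filter and 1 to 2 on leaving out each library, with 2 without mdx replicate 2. The count of heart against muscle was 1 when 5 FPKM were added before the log, 2 with no filter and 0 to 1 on leaving out each library. Genes without overlap numbered 69 with no filter, 2 at a mean of 5 FPKM or more, 67 and 64 after the scalings, and 60 to 104 on leaving out each library.

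Of 969 settings of single genes, 949 kept direction and side of the threshold, 1 moved past it (Hamp) and 19 reversed, over 6 genes. The cause was not tested. No named gene passed the threshold in the main comparison, and most were chosen by p in these libraries, so these counts are a description. Reversed log2 changes were 0.33 for Car3 and 1.05 for Scd1 with the wild-type group left out, 0.22 for Pttg1 with the mdx group left out, and -0.25 and -0.36 for Gm4540 with the mdx or the wild-type group left out. Dmd gave -0.30 with additive terms or with the treated group left out, -0.058 with the wild-type group left out, and -0.109 to 0.189 on leaving out each library. Utrn gave -0.021 with additive terms or with the treated group left out, -0.015 with the transgenic group left out, and -0.066 to 0.141 on leaving out each library. Of 907 settings of list medians 16 moved by more than the spread within groups. That spread is wide beside most medians, so a median could change sign and still count as unmoved. For fatty acid oxidation the spread was 0.43, and the median went from -0.13 to 0.06 without mdx replicate 1. The count is therefore no measure of a steady direction.

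Replicate numbers did not pair the hearts: over 10 pairs of groups the deviations of same-numbered libraries correlated at -0.08 to 0.05. With the replicate number as a block, 0 genes were called in the main comparison, 1 by transgene and 0 between the tissues.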
